A study of Homo sapiens with 12 samples.

Results

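The genes described here are 36 genes of glucose breakdown and of the response to low oxygen: glucose and lactate carriers, the enzymes from hexokinase to lactate dehydrogenase, 2 alpha subunits of the hypoxia-inducible factor (HIF), 2 of the enzymes that sense oxygen, and 8 further genes known to respond to HIF. They were chosen by name, from what the genes are known to do, but with earlier results of these data known. The same holds for the further lists of genes below. Each of the 36 symbols matched exactly 1 of the 61541 gene identifiers in the count table. All 36 passed the filter on low counts and are among the 16768 genes tested.

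The libraries are bulk RNA sequencing of A549, a human lung adenocarcinoma cell line, at 14 days after transduction. Cas9 with a guide against TYMS gave the cells called knockout here (TS-KO in the labels). TYMS encodes thymidylate synthase, the enzyme that makes the thymidine nucleotide needed for DNA. The 4 groups had 3 libraries each, and all were kept in high-glucose DMEM with serum and labelled as untreated. Control cells carried the non-targeting guide gNTC1 and grew either alone or in co-culture. Knockout cells likewise grew alone or in co-culture, in their case with parental A549 per the series text. The column names give 1 guide per target. The labels do not name the partner of the control cells, and do not state whether partners were separated for RNA extraction or whether the cells were a pool or a clone. Nothing in the labels says that the 3 libraries of a group came from separate cultures, so the p-values measure only the spread between these libraries, which may be technical.

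Library totals ranged from 14921371 to 35723762 counts. Levels are given as CPM, counts per 1000000 after scaling the library sizes by TMM, with the mean and SD of 3 libraries. TYMS itself stood at 90.3 to 101 CPM in the 6 control libraries, 20.3 to 21.4 CPM in knockout cells alone and 10.7 to 11.4 CPM in co-cultured knockout cells. A549 is known to lack the segment of the short arm of chromosome 9 that holds CDKN2A and MTAP. CDKN2A stood at 54.7 to 116 CPM and MTAP at 43.8 to 79.5 CPM in the 6 control libraries, and at 0 to 0.119 and 0.302 to 0.647 CPM in the 6 knockout libraries. EPCAM, an epithelial adhesion molecule, was at 94.4 to 119 CPM in control and 0.149 to 0.913 CPM in knockout libraries. In CDKN2A and MTAP the control libraries therefore go against the A549 label, and in every comparison of knockout with control below the guide cannot be told apart from whatever else differed between the 2 cell populations. EPCAM is 1 of 13 A549 and epithelial markers, all of which were tested by edgeR. At an adjusted p under 0.05, 8 were higher and 3 lower in knockout than in control cells alone. In co-culture 9 were higher and 4 lower, where 56.6% and 49.4% of all genes tested passed in these 2 comparisons. The 13 markers summed to 17244 to 24052 CPM in control cells alone, 16486 to 21431 in control co-culture, 24599 to 29783 in knockout cells alone and 22835 to 29302 in knockout co-culture. Of 5 leukocyte markers, 3 had at most 1 count in any library, PTPRC and CD3E among them. The leukocyte list summed to 3.70 to 6.23, 1.78 to 4.12, 0.896 to 1.58 and 3.47 to 5.07 CPM in the same 4 groups, and the 4 endothelial markers to 2.13 to 2.60, 1.83 to 2.73, 0.0847 to 0.398 and 0.302 to 0.634 CPM. The fibroblast markers COL1A2, DCN and LUM had at most 4 counts in any library, and the 7 fibroblast markers summed to 20.0 to 24.8, 14.3 to 21.4, 29.2 to 34.3 and 21.8 to 29.2 CPM in the same 4 groups. Replicates of 1 group also differed in how counts followed the GC content of the transcripts, and the third library of co-cultured knockout cells stood apart from the other two in this respect.

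Glycolysis splits glucose into pyruvate, which lactate dehydrogenase can turn into lactate for export from the cell. HIF pairs an alpha subunit, HIF1A or EPAS1, with the stable partner ARNT. In the presence of oxygen the EGLN enzymes mark the alpha subunits for destruction, so the level of HIF protein is set mostly after transcription and is not measured here. Many genes of glycolysis, acid handling and vessel growth carry HIF binding sites with the core letters ACGTG or GCGTG near their starts.

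The short sequences that follow show this core in 9 of the 10 genes drawn in the plot of levels by library, because genes that hold it were found among both the higher and the lower ones. Each is the match nearest the RefSeq start site (GRCh38.p14, first entry of each gene), with up to 12 bases on either side, and capitals mark the core letters read on either strand.
EPAS1 (chr2:46297278-46297306, plus strand): gggcctgccggcGCGTGcccgcccacaca
HIF1A (chr14:61695297-61695325, plus strand): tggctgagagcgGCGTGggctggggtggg
PFKFB3 (chr10:6144741-6144769, plus strand): ggcggcccggccCACGCcccggcttcccc
PFKFB4 (chr3:48556953-48556981, minus strand): tgagttgggcatGCGTGgtcggaggccgg
HK2 (chr2:74834067-74834095, plus strand): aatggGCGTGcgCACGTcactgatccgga
ALDOC (chr17:28576907-28576935, minus strand): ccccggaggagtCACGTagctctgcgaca
ENO2 (chr12:6914450-6914478, plus strand): acccgcgctcgtACGTGcgcctccgccgg
CA9 (chr9:35673898-35673926, plus strand): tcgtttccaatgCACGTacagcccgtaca
ADM (chr11:10304960-10304988, plus strand): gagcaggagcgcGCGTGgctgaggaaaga
SLC16A3, the remaining gene, had neither motif in its 250 bases. The match lay 18 bases before the start in CA9, 28 in ALDOC, 48 in HK2 and 204 in HIF1A. Among the 32 of 36 genes with an entry, 12 (37.5%) had ACGTG on either strand within 250 bases before the start, against 22.9% of the promoters of genes tested and 18.7% of all 27305 promoters in the RefSeq table. GCGTG was found in 13 of 32 (40.6%), against 44.7% of genes tested and 31.9% of all promoters, and 21 (65.6%) had either motif, against 56.4% and 43.1%. A palindromic match counts on both strands. The windows of ALDOC, ENO2 and ADM lie wholly inside exons of longer GENCODE 29 transcripts of the same genes. In PFKFB4, HK2 and CA9, 155, 146 and 72 of the 250 bases lie in such exons. The matches shown for EPAS1, PFKFB4, HK2 and CA9 also fall inside the GENCODE 29 spans of these genes. A match is a description of these letters and not a measured binding site. SLC2A3, NDRG1, SLC16A1 and VEGFA had no entry.

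The first question is how the TYMS guide and the non-targeting guide differed when the cells grew alone. Of the 36 genes, 23 (63.9%) passed edgeR's quasi-likelihood test at an adjusted p under 0.05, with 7 higher and 16 lower in knockout cells. Over all genes tested, 56.6% passed, 28.0% higher and 28.6% lower, so the share of calls was near that of the table as a whole. The median log2 fold change of the 36 was -0.37, against 0.087 over all genes tested. The higher genes were both HIF alpha subunits (EPAS1 and HIF1A), PFKFB3, ADM, LDHB, CA12 and BNIP3. The lower genes were members of every earlier step from glucose entry to enolase except the isomerase GPI and the enzymes GAPDH and PGAM1, together with the lactate exporter SLC16A3 and the HIF-responsive genes CA9, NDRG1 and ANKRD37. In bulk RNA, fewer cells that express a gene and less RNA per cell cannot be told apart.

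**Figure D1:**
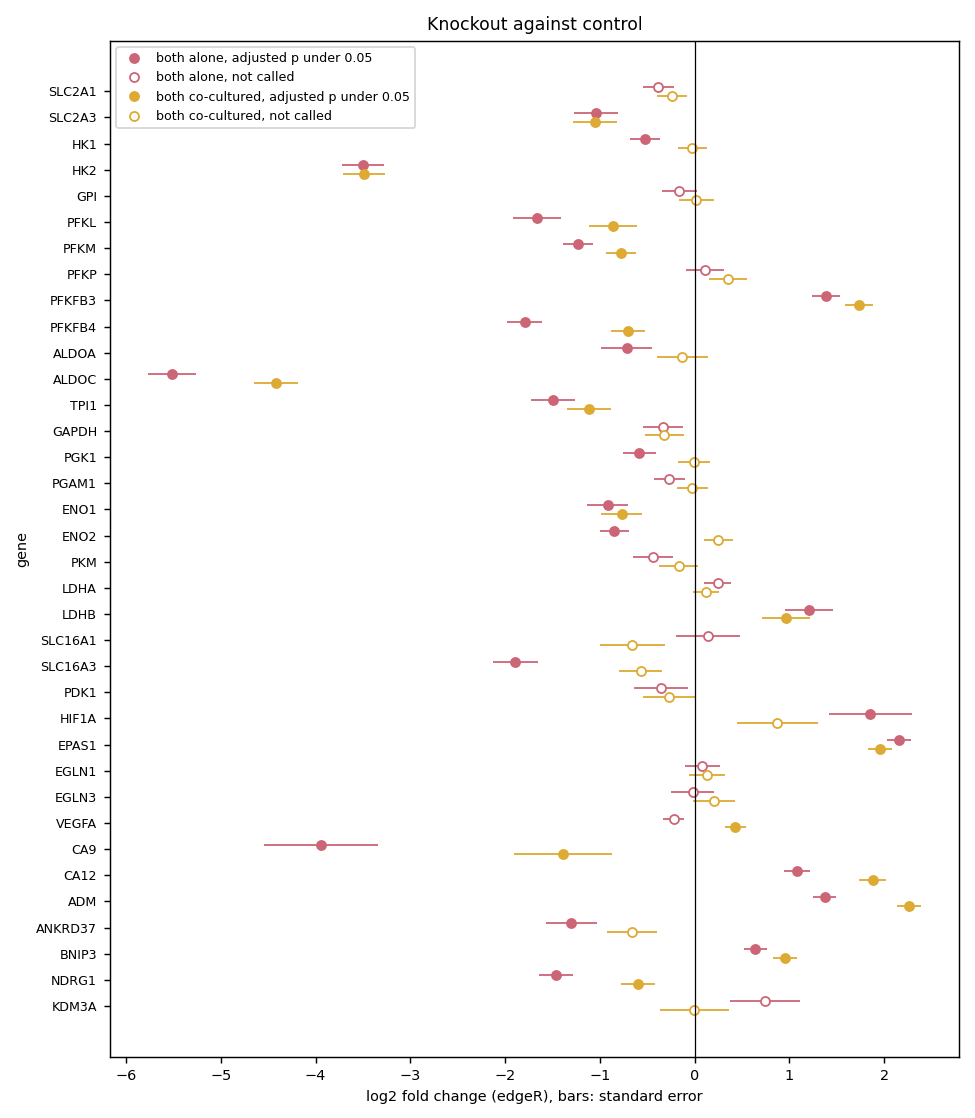
Log2 fold change of each of the 36 genes, knockout against control, with both alone (red) and both co-cultured (yellow). Bars are standard errors from edgeR, filled points passed an adjusted p under 0.05 and open points did not; ALDOC, CA9 and HK2 lie farthest to the left and EPAS1 farthest to the right with cells alone.

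Both HIF alpha subunits had higher transcript levels in knockout cells alone. EPAS1 (ENSG00000116016, chr2:46293667-46386703, plus strand), the HIF-2 alpha subunit, was at 86.1, 101 and 84.7 CPM in the 3 control libraries and 405, 395 and 408 CPM in the 3 knockout libraries. Every knockout library was well above every control library, with a log2 fold change of 2.15 ± 0.128 (SE, with an edgeR adjusted p = 2.61e-08). In co-culture EPAS1 stood at 92.1, 104 and 89.7 CPM in control cells and 356, 361 and 389.6 CPM in knockout cells, again with no overlap, and the log2 fold change was 1.95 ± 0.126 (SE, with an edgeR adjusted p = 6.30e-08). HIF1A (ENSG00000100644, chr14:61695513-61748259, plus strand), the HIF-1 alpha subunit, was at 50.5, 30.5 and 17.7 CPM in control cells alone and 138, 113 and 106 CPM in knockout cells alone. The groups did not overlap but the spread within each was wide, and the log2 fold change was 1.85 ± 0.439 (SE, with an edgeR adjusted p = 0.00305). In co-culture HIF1A was at 41.4, 31.7 and 25.9 CPM in control and 43.3, 29.9 and 108 CPM in knockout cells. The third knockout library was by far the highest of its group and the groups overlapped. The co-cultured log2 fold change of HIF1A, 0.87 ± 0.429 (SE, with an edgeR adjusted p = 0.110), did not pass, and without the third co-cultured knockout library it was 0.15 (edgeR adjusted p = 0.705). Without the second it passed, at 1.17 (edgeR adjusted p = 0.0247). HIF1A has the lowest GC content of the 36 genes, 38.9%, and its exons overlap the antisense gene HIF1A-AS1, whose reads could not be separated if counting ignored strand. Offsets that remove each library's trend with GC content, relative to the mean of all 12 libraries, are called the GC correction from here on. With it the log2 fold change of HIF1A was 1.26 (edgeR adjusted p = 1.42e-05) with cells alone and 0.79 (edgeR adjusted p = 8.78e-04) with cells co-cultured.

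**Figure D2:**
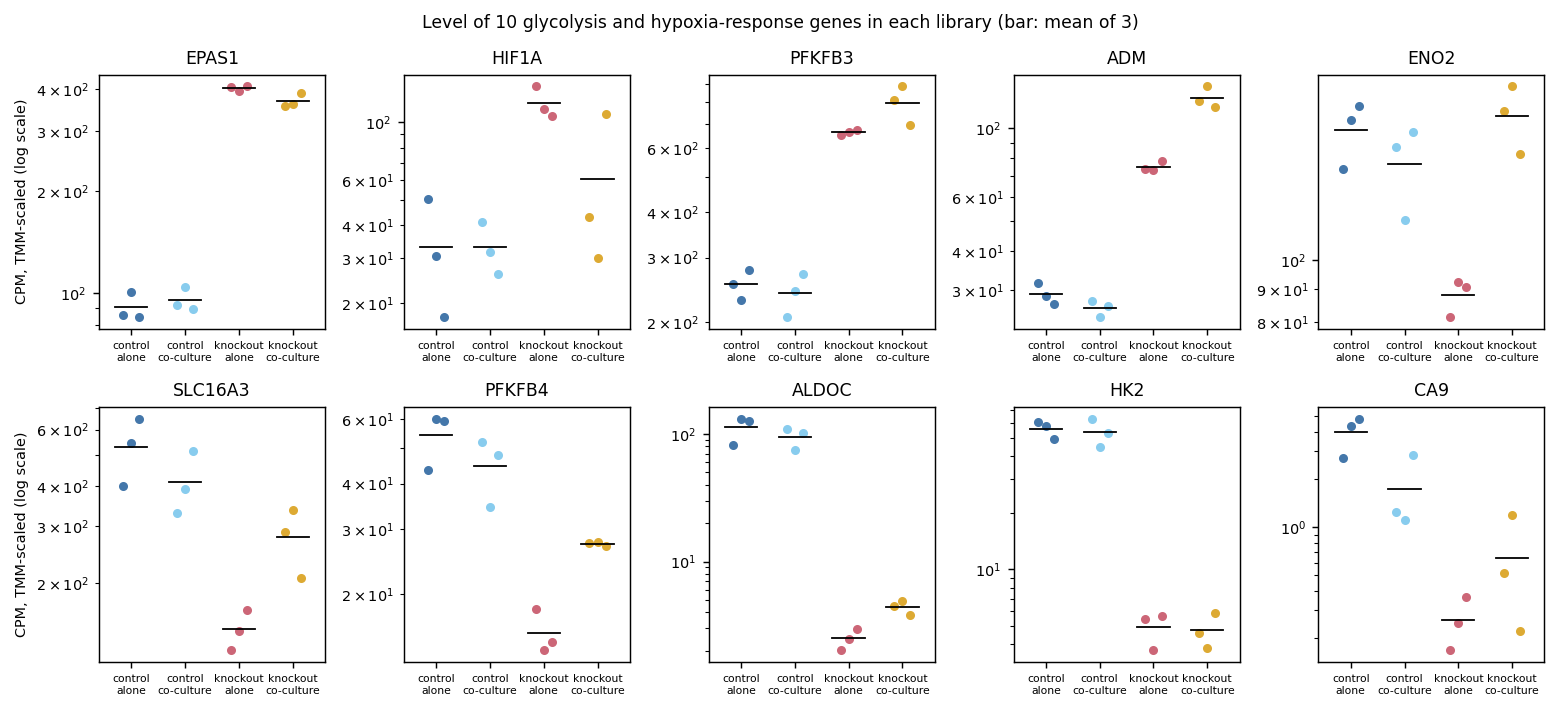
Level in each of the 12 libraries of 10 genes, as CPM on a log axis, with a bar at the mean of 3. EPAS1, PFKFB3 and ADM are higher in all knockout libraries than in any control library, ALDOC and HK2 lower, and ENO2 is lowest in knockout cells alone.

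Of the 2 glucose carriers and 2 hexokinases, 3 fell in knockout cells alone (SLC2A3, HK1 and HK2), HK2 by the most, where 28.6% of all genes tested fell. HK2 (ENSG00000159399, chr2:74833981-74893359, plus strand), the inducible hexokinase of many tumours, was at 60.6, 57.9 and 49.0 CPM in control cells alone and 5.46, 3.73 and 5.66 CPM in knockout cells alone. The groups were far apart, 11.3-fold by their means, with a log2 fold change of -3.50 ± 0.222 (SE, with an edgeR adjusted p = 5.39e-08). In co-culture HK2 was at 62.9, 44.5 and 52.8 CPM in control and 4.57, 3.85 and 5.86 CPM in knockout cells, with nearly the same log2 fold change of -3.49 ± 0.220 (SE, with an edgeR adjusted p = 5.83e-08). HK1, the hexokinase of most tissues, was at 160.2 ± 22.6 CPM in control and 111 ± 6.02 CPM in knockout cells alone (SD, n = 3), with a log2 fold change of -0.52 (edgeR adjusted p = 0.0128). Co-cultured knockout cells had 153 ± 21.8 CPM of HK1, and against co-cultured control cells it did not pass, with a log2 fold change of -0.023 (edgeR adjusted p = 0.916). The glucose carrier SLC2A3 fell in knockout cells alone, from 16.7 ± 4.2 to 8.09 ± 0.263 CPM, with a log2 fold change of -1.04 (edgeR adjusted p = 0.00223) alone and -1.05 (edgeR adjusted p = 0.00229) in co-culture. The main glucose carrier SLC2A1 was at 456 ± 80.5 CPM in control and 349 ± 25.0 CPM in knockout cells alone. Its log2 fold change of -0.38 (edgeR adjusted p = 0.0600) did not pass, although the libraries did not overlap, and it passed at -0.53 (edgeR adjusted p = 0.0132) without the first control library.

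The phosphofructokinase step, the committed step of glycolysis, changed in its subunits and in the enzymes that make its activator in unequal ways. Of its 3 subunits the liver form PFKL was at 544 ± 128 CPM in control and 172 ± 32.8 CPM in knockout cells alone, with a log2 fold change of -1.66 (edgeR adjusted p = 1.23e-04). The muscle form PFKM was at 206 ± 35.4 and 87.9 ± 2.86 CPM, with a log2 fold change of -1.23 (edgeR adjusted p = 3.28e-05). The platelet form PFKP had 885 ± 180.2 and 956 ± 117 CPM, with a log2 fold change of 0.11 (edgeR adjusted p = 0.660) that did not pass. PFKP was thus the subunit with the highest level per kilobase of exon in both cell types, 183 ± 37.3 CPM per kb in control and 198 ± 24.3 in knockout cells alone, against 60.9 ± 14.4 and 19.2 ± 3.68 for PFKL. In co-culture PFKL and PFKM were again lower in knockout cells, with log2 fold changes of -0.86 (edgeR adjusted p = 0.0114) and -0.78 (edgeR adjusted p = 0.00126). PFKL has 64.0% GC, and with the GC correction its value with cells alone was -0.88 (edgeR adjusted p = 2.05e-07). PFKP passed with the correction, at 0.55 (edgeR adjusted p = 4.75e-05).

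PFKFB3 and PFKFB4 encode enzymes that make and break down fructose-2,6-bisphosphate, the activator of phosphofructokinase, and PFKFB3 chiefly makes it. PFKFB3 (ENSG00000170525, chr10:6144934-6254644, plus strand) was at 254, 230.2 and 277 CPM in control cells alone and 651, 665 and 673 CPM in knockout cells alone. The knockout libraries were all higher, 2.61-fold by their means, with a log2 fold change of 1.39 ± 0.148 (SE, with an edgeR adjusted p = 5.48e-06). Among co-cultured cells PFKFB3 was at 206, 243 and 271 CPM in control and 812, 887 and 692 CPM in knockout cells, without overlap, and the log2 fold change was 1.73 ± 0.150 (SE, with an edgeR adjusted p = 8.99e-07). PFKFB4 (ENSG00000114268, chr3:48517684-48562015, minus strand) went the other way, at 43.4, 60.1 and 59.2 CPM in control and 18.1, 14.0 and 14.7 CPM in knockout cells alone. Its libraries did not overlap and the log2 fold change was -1.79 ± 0.186 (SE, with an edgeR adjusted p = 4.47e-06). In co-culture PFKFB4 was at 51.9, 34.5 and 47.9 CPM in control and 27.5, 27.7 and 26.9 CPM in knockout cells, with a log2 fold change of -0.71 ± 0.180 (SE, with an edgeR adjusted p = 0.00541). The exons of PFKFB4 overlap those of UCN2 on the same strand.

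Below phosphofructokinase, 6 of 9 genes fell in knockout cells alone and none rose, against 28.6% of all genes tested lower and 28.0% higher; 1 of the 6 is ALDOA, whose call depended on single libraries and on the GC correction. The change was deepest in ALDOC (ENSG00000109107, chr17:28573115-28577264, minus strand), the brain form of aldolase, which was at 82.3, 131 and 127 CPM in control and 2.03, 2.49 and 2.98 CPM in knockout cells alone. These knockout levels rest on 48, 50 and 49 counts. The group means were 45.3-fold apart, with a log2 fold change of -5.51 ± 0.253 (SE, with an edgeR adjusted p = 3.89e-09). Co-cultured ALDOC was at 109, 74.4 and 101 CPM in control and 4.53, 4.92 and 3.84 CPM in knockout cells, with a log2 fold change of -4.42 ± 0.235 (SE, with an edgeR adjusted p = 1.46e-08). ALDOA, the aldolase of most tissues, was at 304 ± 75.0 and 185 ± 40.8 CPM with cells alone, and its log2 fold change was -0.72 (edgeR adjusted p = 0.0355). The ALDOA libraries overlapped. Of its 3916 exon bases, 1657 are shared with the gene AC093512.2 on the same strand. Its call was lost without the second control library (-0.68, edgeR adjusted p = 0.0905), the third (-0.59, edgeR adjusted p = 0.114), the first knockout library (-0.56, edgeR adjusted p = 0.134) or the second (-0.74, edgeR adjusted p = 0.0762), and with the GC correction (-0.15, edgeR adjusted p = 0.318).

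TPI1 and both enolases also fell in knockout cells alone. TPI1, triose phosphate isomerase, was at 2873 ± 748 CPM in control and 1018 ± 205 CPM in knockout cells alone, with a log2 fold change of -1.50 (edgeR adjusted p = 1.49e-04) alone and -1.12 (edgeR adjusted p = 0.00139) in co-culture. ENO1, the common enolase, was at 6587 ± 1541 and 3490.5 ± 617 CPM, with log2 fold changes of -0.92 (edgeR adjusted p = 0.00295) alone and -0.77 (edgeR adjusted p = 0.00955) in co-culture. ENO2 (ENSG00000111674, chr12:6913745-6923698, plus strand), the neuronal enolase, was at 139, 165 and 173 CPM in control and 81.5, 92.5 and 90.8 CPM in knockout cells alone. The knockout libraries were all lower, with a log2 fold change of -0.85 ± 0.154 (SE, with an edgeR adjusted p = 4.68e-04). In co-culture the levels of ENO2 were 149.6, 115 and 158 CPM in control and 169.9, 186 and 146 CPM in knockout cells, the groups overlapped, and the log2 fold change of 0.25 ± 0.153 (SE, with an edgeR adjusted p = 0.196) did not pass. PGK1, phosphoglycerate kinase, fell alone (log2 fold change -0.58, edgeR adjusted p = 0.0109) and did not pass in co-culture, where its log2 fold change was -0.0074 (edgeR adjusted p = 0.975).

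GAPDH, PGAM1 and PKM did not pass with cells alone. GAPDH, glyceraldehyde phosphate dehydrogenase, was at 6466 ± 1326 and 5133 ± 886 CPM, with a log2 fold change of -0.33 (edgeR adjusted p = 0.185). PGAM1, phosphoglycerate mutase, had a log2 fold change of -0.27 (edgeR adjusted p = 0.182) and PKM, the muscle-type pyruvate kinase, -0.44 (edgeR adjusted p = 0.0870). PGAM1 and PKM passed without the first control library, at -0.42 (edgeR adjusted p = 0.0349) and -0.61 (edgeR adjusted p = 0.0251). GAPDH has 62 named pseudogenes in GENCODE 29, PGAM1 has 13 and BNIP3 has 39, and reads shared with them could have been lost or added, since the treatment of reads with several matches is not given in the sources used here. The log2 fold change of the isomerase GPI was -0.16 (edgeR adjusted p = 0.468).

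At the lactate step the B subunit of lactate dehydrogenase, LDHB, rose from 32.0 ± 0.771 CPM in control to 73.8 ± 22.2 CPM in knockout cells alone, with log2 fold changes of 1.21 (edgeR adjusted p = 0.00128) alone and 0.96 (edgeR adjusted p = 0.00612) in co-culture. Of the 2983 exon bases of LDHB, 997 are shared with the gene AC010197.2 on the same strand. The A subunit LDHA was at 826 ± 66.6 and 978 ± 78.7 CPM, with a log2 fold change of 0.24 (edgeR adjusted p = 0.153) that did not pass. SLC16A3 (ENSG00000141526, chr17:82228397-82261129, plus strand), the lactate exporter MCT4, was at 399, 545 and 648 CPM in control and 123, 142 and 164 CPM in knockout cells alone. All its knockout libraries were lower, 3.71-fold by the means, with a log2 fold change of -1.89 ± 0.236 (SE, with an edgeR adjusted p = 2.29e-05). In co-culture SLC16A3 was at 329.7, 391 and 514 CPM in control and 289, 337 and 207 CPM in knockout cells, the groups overlapped, and the log2 fold change of -0.57 ± 0.229 (SE, with an edgeR adjusted p = 0.0549) did not pass. SLC16A3 has the highest GC content of the 36 genes, 65.6%, and its exons overlap those of CSNK1D on the other strand. With the GC correction its log2 fold change alone was -1.01 (edgeR adjusted p = 5.67e-09). SLC16A1, the other lactate carrier, had log2 fold changes of 0.14 (edgeR adjusted p = 0.747) alone and -0.66 (edgeR adjusted p = 0.126) in co-culture. PDK1, a kinase that turns off pyruvate dehydrogenase, was at 4.93 ± 1.52 and 3.83 ± 0.422 CPM with a log2 fold change of -0.36 (edgeR adjusted p = 0.299), and -0.93 (edgeR adjusted p = 4.82e-04) with the GC correction.

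The oxygen sensors EGLN1 and EGLN3 did not pass with cells alone, with log2 fold changes of 0.081 (edgeR adjusted p = 0.730) and -0.019 (edgeR adjusted p = 0.949). The 8 HIF-responsive genes divided into 3 higher (ADM, CA12 and BNIP3), 3 lower (CA9, NDRG1 and ANKRD37) and 2 that did not pass (VEGFA and KDM3A), where 56.6% of all genes tested passed. ADM (ENSG00000148926, chr11:10304680-10307397, plus strand), which encodes the vasodilator peptide adrenomedullin, was at 31.5, 28.7 and 26.9 CPM in control and 73.9, 73.2 and 78.2 CPM in knockout cells alone. Its groups were clearly apart, with a log2 fold change of 1.37 ± 0.121 (SE, with an edgeR adjusted p = 9.36e-07). Co-cultured ADM was at 27.5, 24.5 and 26.6 CPM in control and 123, 137 and 117 CPM in knockout cells, with a log2 fold change of 2.26 ± 0.123 (SE, with an edgeR adjusted p = 1.51e-08). CA9 (ENSG00000107159, chr9:35673856-35681159, plus strand), a carbonic anhydrase of the cell surface and a classic marker of hypoxia, was low throughout, at 2.73, 4.31 and 4.81 CPM in control and 0.169, 0.249 and 0.365 CPM in knockout cells alone. The knockout values rest on 4, 5 and 6 counts. The groups did not overlap and the log2 fold change was -3.94 ± 0.602 (SE, with an edgeR adjusted p = 1.26e-04). In co-culture CA9 was at 1.25, 1.11 and 2.85 CPM in control and 0.517, 1.19 and 0.224 CPM in knockout cells, the groups overlapped, and the log2 fold change was -1.39 ± 0.513 (SE, with an edgeR adjusted p = 0.0386). The exons of CA9 overlap those of ARHGEF39 on the other strand.

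CA12, a second carbonic anhydrase of the cell surface, moved opposite to CA9, from 213 ± 15.5 CPM in control to 450.0 ± 47.5 CPM in knockout cells alone (log2 fold change 1.08, edgeR adjusted p = 2.62e-05). In co-culture the CA12 means were 194 ± 19.9 and 712 ± 56.0 CPM (log2 fold change 1.88, edgeR adjusted p = 2.41e-07). BNIP3, a mitophagy receptor, rose from 39.3 ± 2.90 to 61.2 ± 2.34 CPM alone (log2 fold change 0.64, edgeR adjusted p = 6.95e-04). NDRG1, a stress-response gene, fell from 163 ± 30.5 to 59.1 ± 5.08 CPM (log2 fold change -1.46, edgeR adjusted p = 2.36e-05), and ANKRD37, a small ankyrin-repeat protein, from 5.94 ± 1.70 to 2.42 ± 0.550 CPM (log2 fold change -1.30, edgeR adjusted p = 0.00126). VEGFA, the vascular growth factor, had a log2 fold change of -0.22 (edgeR adjusted p = 0.110) alone, and KDM3A, a histone demethylase, 0.74 (edgeR adjusted p = 0.102). Neither passed.

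The same contrast between co-cultured cells uses 6 other libraries, and 17 of the 36 genes passed, 7 higher and 10 lower, against 49.4% of all genes tested (24.1% higher, 25.3% lower). The median log2 fold change of the 36 was -0.078, against -0.021 over all genes. Of these 17 genes, 16 (94.1%) had passed in the same direction with cells alone, where they made up 69.6% of the 23, and no gene passed in opposite directions. With the GC correction ENO2 did, at -0.54 (edgeR adjusted p = 7.51e-05) alone and 0.32 (edgeR adjusted p = 0.00505) in co-culture, and with library size alone it passed as higher in co-culture (0.28, edgeR adjusted p = 0.0315). Over all genes tested the same shares were 78.0% and 68.0%. The genes lower in both settings were SLC2A3, HK2, PFKL, PFKM, PFKFB4, ALDOC, TPI1, ENO1, CA9 and NDRG1, and those higher in both were PFKFB3, LDHB, EPAS1, CA12, ADM and BNIP3. VEGFA passed in co-culture and not with cells alone, with a log2 fold change of 0.43 (edgeR adjusted p = 0.00633), with 43.6 ± 1.11 CPM in control and 58.7 ± 3.43 CPM in knockout cells. HK1, ALDOA, PGK1, ENO2, SLC16A3, HIF1A and ANKRD37 passed with cells alone and not in co-culture. The difference between the 2 contrasts is the interaction given below, in which none of these 7 except ENO2 passed. With the GC correction HIF1A, ENO2, SLC16A3 and ANKRD37 passed in co-culture too, SLC16A3 at -0.22 (edgeR adjusted p = 0.0117) and ANKRD37 at -0.69 (edgeR adjusted p = 0.00790), with 63.3% of all genes called in that fit. SLC16A1 (-0.73, edgeR adjusted p = 0.00512) and PFKP (0.47, edgeR adjusted p = 1.74e-04), called in neither contrast of the main fit, passed there as well. SLC16A1 also passed without the third co-cultured knockout library (-1.19, edgeR adjusted p = 0.00187). CA9 lost its call in co-culture without the third control library (-0.85, edgeR adjusted p = 0.216), or without the first (-1.29, edgeR adjusted p = 0.102) or the third (-0.98, edgeR adjusted p = 0.0841) knockout library, and NDRG1 without the first control library (-0.53, edgeR adjusted p = 0.0538).

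The next question is what co-culture did to knockout cells. Of the 36 genes, 8 (22.2%) passed, all higher in co-culture, against 11.4% of all genes tested, 5.97% higher and 5.40% lower. The median log2 fold change was 0.19, against 0.012 over all genes. The 8 genes were SLC16A3, ENO2, ALDOC, PFKFB4, ADM, PGK1, CA12 and VEGFA. Of the 5 leukocyte markers the 2 with enough counts were CD14, which was higher in co-cultured knockout cells (log2 fold change 1.91, edgeR adjusted p = 0.00563) and lower in lone knockout than in lone control cells (log2 fold change -2.45, edgeR adjusted p = 8.51e-05), and CSF1R, which passed neither (log2 fold change 1.32, edgeR adjusted p = 0.147 and log2 fold change 1.12, edgeR adjusted p = 0.249). Between co-cultured cells CSF1R was higher in knockout cells (log2 fold change 1.80, edgeR adjusted p = 0.0230). In the interaction CD14 passed as well, at 2.75 (edgeR adjusted p = 0.0111), and the part of these markers' source in any result was not tested. This comparison shares the lone knockout libraries with the first one, so opposite signs in both are not independent. The values are therefore given side by side.

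**Figure D3:**
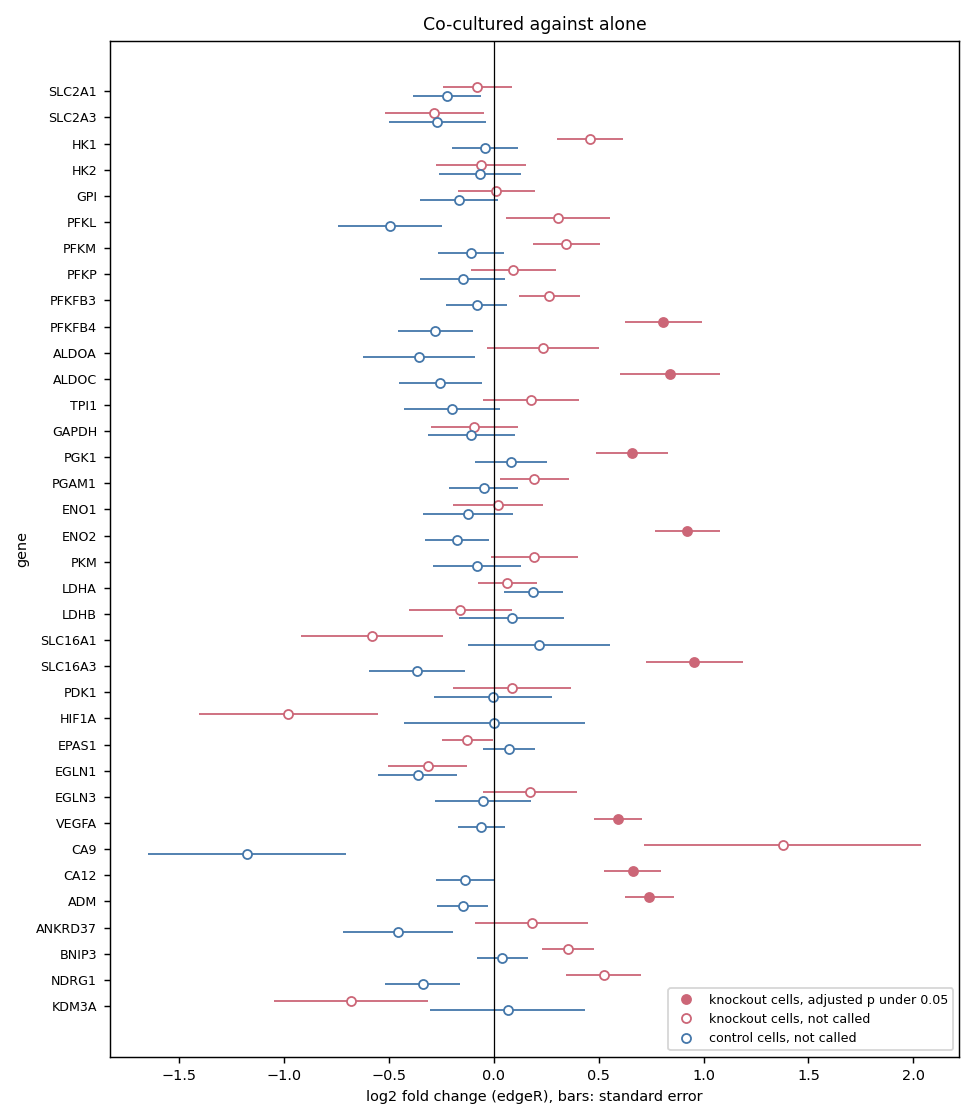
Log2 fold change of each of the 36 genes, co-cultured against alone, in knockout cells (red) and control cells (blue), with standard errors from edgeR. Filled points passed an adjusted p under 0.05; the 8 filled points are all in knockout cells and all to the right of 0.

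SLC16A3 had the largest called change, from 123, 142 and 164 CPM alone to 289, 337 and 207 CPM in co-culture, with no overlap and a log2 fold change of 0.96 ± 0.231 (SE, with an edgeR adjusted p = 0.0216). Its value against the lone control had been -1.89. ENO2 went from 81.5, 92.5 and 90.8 to 169.9, 186 and 146 CPM, again without overlap, a log2 fold change of 0.92 ± 0.154 (SE, with an edgeR adjusted p = 0.00294) beside -0.85 for knockout against control. ALDOC and PFKFB4 rose as well, with log2 fold changes of 0.84 (edgeR adjusted p = 0.0409) and 0.81 (edgeR adjusted p = 0.0159), and every co-cultured library was above every lone one. ALDOC in co-cultured knockout cells was still 21.4-fold below co-cultured control cells, and PFKFB4 1.63-fold below. PGK1 rose from 813 ± 72.5 to 1283 ± 179.9 CPM, with a log2 fold change of 0.66 (edgeR adjusted p = 0.0294).

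For ADM and CA12 the co-culture change had the same sign as the knockout difference. ADM went from 73.9, 73.2 and 78.2 CPM alone to 123, 137 and 117 CPM in co-culture, with a log2 fold change of 0.74 ± 0.118 (SE, with an edgeR adjusted p = 0.00208), and CA12 from 450.0 ± 47.5 to 712 ± 56.0 CPM (log2 fold change 0.66, edgeR adjusted p = 0.0102). All co-cultured libraries of both genes were above all lone ones, so that ADM and CA12 were highest of the 4 groups in co-cultured knockout cells. VEGFA rose from 38.9 ± 2.21 to 58.7 ± 3.43 CPM (log2 fold change 0.59, edgeR adjusted p = 0.00634). HIF1A was at 138, 113 and 106 CPM alone and 43.3, 29.9 and 108 CPM in co-culture, and its log2 fold change of -0.98 ± 0.426 (SE, with an edgeR adjusted p = 0.144) did not pass. EPAS1 had a log2 fold change of -0.13 (edgeR adjusted p = 0.507), HK2 -0.058 (edgeR adjusted p = 0.877) and CA9 1.38 (edgeR adjusted p = 0.179), none of which passed. The log2 fold changes of PFKFB3, 0.27 (edgeR adjusted p = 0.236), and LDHB, -0.16 (edgeR adjusted p = 0.693), did not pass either.

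These co-culture calls depended on single libraries. Of the 8 genes, 5 passed without the first lone knockout library, 3 without the second and 4 without the third, 4 without the first co-cultured knockout library and 5 without the second, while the shares of all genes called in these 5 fits were 3.50%, 3.78%, 5.91%, 3.13% and 4.78% in the same order. Without the third co-cultured library 15 genes passed, 12 higher and 3 lower, but 33.4% of all genes tested passed too, and the lower ones were HIF1A (-1.70, edgeR adjusted p = 0.00156), SLC16A1 (-1.11, edgeR adjusted p = 0.00586) and KDM3A (-1.24, edgeR adjusted p = 0.00626). VEGFA, ADM and ENO2 passed with each of the 6 libraries left out. The range of the log2 fold change over those 6 fits was 0.78 to 1.13 for SLC16A3, 0.70 to 0.96 for ALDOC, 0.54 to 0.75 for PGK1, 0.74 to 0.93 for PFKFB4 and 0.60 to 0.75 for CA12.

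In control cells, co-culture gave no call among the 36 genes with edgeR, nor among the 16768 genes tested (0%), of which 540 had an unadjusted p under 0.05. DESeq2 also called none of the 36. The median log2 fold change of the 36 was -0.12, against -0.010 over all genes. LDHA, singled out after its values were seen, was the 1 gene whose libraries did not overlap, at 839, 886 and 754 CPM alone and 1042, 894 and 889 CPM in co-culture, with a log2 fold change of 0.19 (edgeR adjusted p = 1), where 7.39% of all genes tested had libraries without overlap.

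The difference between the co-culture responses of the 2 cell types was tested as an interaction, in which 2 of the 36 genes passed, both with the larger response in knockout cells, against 1.80% of all genes tested (1.51% in that direction). ADM had an interaction of 0.89 ± 0.168 (SE, with an edgeR adjusted p = 0.0170), made up of 0.74 in knockout and -0.15 in control cells. ENO2 had 1.10 ± 0.217 (SE, with an edgeR adjusted p = 0.0222), made up of 0.92 and -0.18. The values of SLC16A3 and PFKFB4, 1.32 (edgeR adjusted p = 0.0614) and 1.09 (edgeR adjusted p = 0.0526), did not pass. SLC16A3 passed with the GC correction (0.79, edgeR adjusted p = 1.45e-04), with that and the replicate block (0.79, edgeR adjusted p = 0.00103), with library size alone (1.18, edgeR adjusted p = 0.0172) and without a filter on low counts (1.44, edgeR adjusted p = 5.05e-05), and with DESeq2 (1.43, DESeq2 adjusted p = 0.00939). PFKFB4 passed with RLE size factors (1.18, edgeR adjusted p = 0.0456), the GC correction (0.85, edgeR adjusted p = 0.0308) and without a filter (1.20, edgeR adjusted p = 0.00396). It also passed with the GC correction and the block (0.88, edgeR adjusted p = 0.0393) and with DESeq2 (1.18, DESeq2 adjusted p = 0.00435). CA12, NDRG1, ALDOC and CA9 passed with the GC correction, with DESeq2 and without a filter, but not in the main fit. ADM did not pass with the GC correction (0.58, edgeR adjusted p = 0.0814), library size alone (0.78, edgeR adjusted p = 0.0674) or the replicate block (0.89, edgeR adjusted p = 0.0524). The median interaction was 0.29, against 0.013 over all genes tested. Both calls moved with single libraries: no gene passed without the second lone control, second co-cultured control, first or second lone knockout, or first or second co-cultured knockout library. Without the third lone control, the first co-cultured control or the third lone knockout library 1 gene passed. In all these fits only 119 to 190 of the 17118 to 17363 genes tested passed. Without the third co-cultured control library 3 of the 36 genes passed, with 311 of 17143 genes tested. Without the first lone control 5 passed, with 1.98% of all genes, and without the third co-cultured knockout library 13, with 21.3% of all genes.

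Ratios of 2 related genes within a library do not depend on how libraries are scaled. They compare the transcripts of 2 forms of an enzyme or carrier. A ratio can still follow its library's GC trend where the 2 genes differ in GC content, such as SLC16A1 (44.9%) and SLC16A3 (65.6%). The ratios were given without the GC correction. They were computed for 12 pairs as the log2 ratio of counts, with 0.5 added to each. With 3 libraries against 3 the smallest exact two-sided permutation p is 0.1, and after adjustment over the 48 tests 0.2, so no ratio could pass 0.05 and the values are given with their spread. With cells alone the libraries did not overlap in 8 of 12 pairs, where 65.2% of all genes tested had CPM values without overlap. This share and those by CPM below are for single genes, and no share over other pairs was computed. The ratio of HK1 to HK2 was 1.15, 1.55 and 1.85 in control and 4.28, 4.97 and 4.27 in knockout libraries. It was thus far more on the side of HK1 in every knockout library, at 1.52 ± 0.352 and 4.51 ± 0.403 by the means (SD, n = 3). PFKFB3 to PFKFB4 went from 2.24 ± 0.305 to 5.41 ± 0.216, and ALDOA to ALDOC from 1.42 ± 0.116 to 6.19 ± 0.0602.

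**Figure D4:**
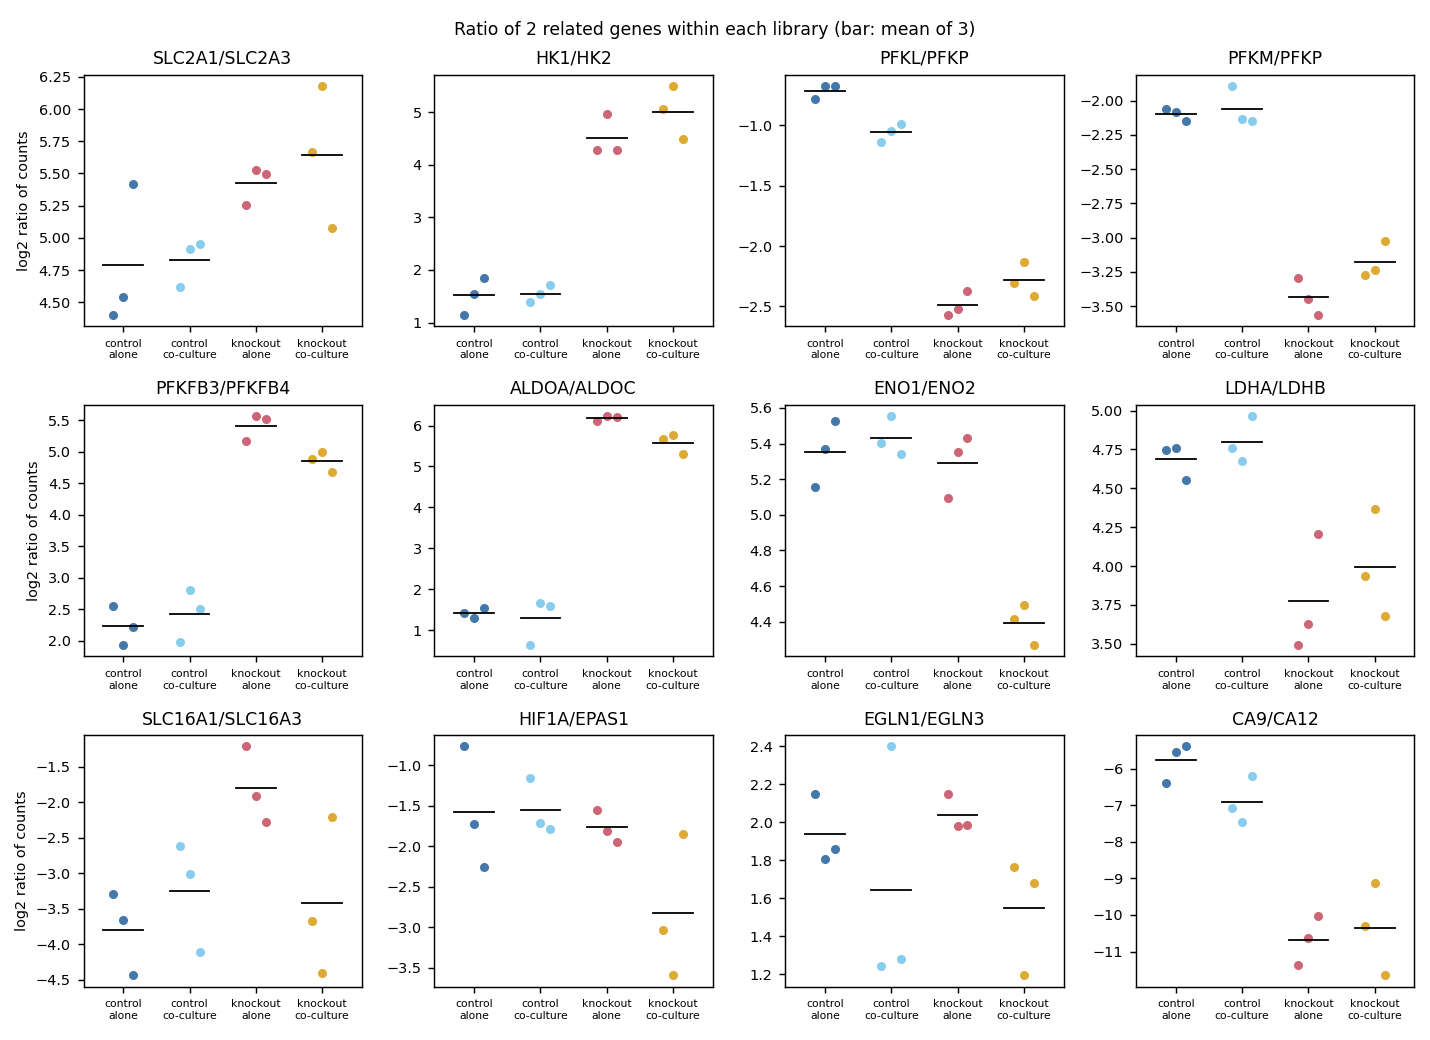
Log2 ratio of the counts of 2 related genes in each of the 12 libraries, for 12 pairs, with a bar at the mean of 3. HK1 to HK2, PFKFB3 to PFKFB4 and ALDOA to ALDOC stand higher in all knockout libraries than in any control library, and PFKL to PFKP, PFKM to PFKP, LDHA to LDHB and CA9 to CA12 lower.

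In the opposite direction, PFKL to PFKP was at -0.71 ± 0.0635 in control and -2.49 ± 0.102 in knockout cells alone, and LDHA to LDHB at 4.69 ± 0.115 and 3.77 ± 0.379. CA9 to CA12 was at -5.78 ± 0.532 and -10.68 ± 0.669, so that CA12 exceeded CA9 in counts in every library and by more in knockout cells. ENO1 to ENO2 was at 5.16, 5.37 and 5.53 in control and 5.09, 5.35 and 5.43 in knockout cells alone, which overlapped. In co-cultured knockout cells ENO1 to ENO2 was 4.41, 4.49 and 4.27, below every lone knockout library and below every co-cultured control library (5.40, 5.55 and 5.34). Between co-cultured control and knockout cells the libraries did not overlap in 10 of 12 pairs, against 55.4% of genes by CPM. With co-culture of knockout cells 5 of 12 pairs did not overlap, against 31.5% of genes by CPM. With co-culture of control cells 1 of 12 did not, against 7.39% of genes by CPM, so the share was near that of genes. The pair was PFKL to PFKP, at -0.71 ± 0.0635 alone and -1.06 ± 0.0713 in co-culture.

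Per kilobase of exon, 4 enzymes stood highest. The length used is that of all annotated exons of a gene together, such as 8571 bases for PKM and 2700 for TPI1, so the order depends on the annotation. By CPM alone, lone control cells had 7226 for PKM, 6587 for ENO1, 6466 for GAPDH and 2873 for TPI1. In control cells alone GAPDH had 2169 ± 445 CPM per kb, ENO1 1249 ± 292, TPI1 1064 ± 277 and PKM 843 ± 189 (SD, n = 3), with ENO1 and TPI1 within their spread of each other. The order in knockout cells alone was GAPDH at 1722 ± 297, ENO1 at 662 ± 117, PKM at 620.5 ± 97.8 and TPI1 at 377 ± 76.0 CPM per kb, with ENO1 and PKM within their spread and TPI1 now lowest of the 4. At the low end PDK1 had 0.331 ± 0.102 CPM per kb in control and 0.257 ± 0.0283 in knockout cells alone. CA9 was lower still in knockout cells alone, at 0.156 ± 0.0590 CPM per kb. Together the 36 genes took 2.67 to 3.10% of all counts in control cells alone, 2.7 to 3.01% in control co-culture, 2.17 to 2.48% in knockout cells alone and 2.27 to 2.66% in knockout co-culture. The share was lower in every lone knockout library than in any lone control library, and the co-cultured groups did not overlap either. It is set mostly by the 4 enzymes named above, of which GAPDH and PKM did not pass with cells alone. The 17 enzymes from hexokinase to lactate dehydrogenase made up 2.48 to 2.92% of counts in control and 1.89 to 2.22% in knockout cells alone.

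Further genes of the same pathways, listed by function, also moved in both directions. Of 31 other genes of glycolysis and pyruvate use, 21 were tested, and with cells alone 8 were higher and 9 lower in knockout cells (81.0%, against 56.6% of all genes tested). The highest were TIGAR (log2 fold change 1.91, edgeR adjusted p = 4.92e-04), a phosphatase that lowers fructose-2,6-bisphosphate, and HKDC1 (log2 fold change 1.89, edgeR adjusted p = 5.89e-07), a further hexokinase, at 44.5 ± 5.01 CPM in control and 165 ± 13.4 CPM in knockout cells. The lowest were PDP1 (log2 fold change -5.10, edgeR adjusted p = 8.75e-08), which turns pyruvate dehydrogenase on, and BSG (log2 fold change -1.62, edgeR adjusted p = 4.75e-05), the chaperone of the lactate carriers. With co-culture of knockout cells 3 were higher, BPGM (log2 fold change 0.90, edgeR adjusted p = 0.0323), which makes 2,3-bisphosphoglycerate, PCK2 (log2 fold change 0.60, edgeR adjusted p = 0.0402) and MPC2 (log2 fold change 0.53, edgeR adjusted p = 0.0451), and none was lower (14.3%, against 11.4% of all genes).

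Of 16 other genes of oxygen sensing, 15 were tested, and 3 were higher and 6 lower in knockout cells alone (60%, against 56.6% of all genes tested). EP300, a coactivator that HIF recruits, had a log2 fold change of 1.06 (edgeR adjusted p = 0.00101) and ARNT2, a relative of the HIF partner ARNT, 0.70 (edgeR adjusted p = 1.54e-04). CITED2, which competes with HIF for that coactivator, had a log2 fold change of -1.24 (edgeR adjusted p = 2.44e-05) and HIF1AN, an oxygen-dependent inhibitor of HIF, -0.60 (edgeR adjusted p = 0.00271). With co-culture of knockout cells CITED2 (log2 fold change 0.71, edgeR adjusted p = 0.0140) and OS9 (log2 fold change 0.64, edgeR adjusted p = 0.0117) were higher and EP300 (log2 fold change -0.76, edgeR adjusted p = 0.0387) and CREBBP (log2 fold change -0.70, edgeR adjusted p = 0.0153) lower, 4 of 15 (26.7%), against 11.4% of all genes. HIF3A was not tested, with at most 11 counts in a library.

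Of 40 other genes known to respond to HIF, 35 were tested, and 15 were higher and 11 lower in knockout cells alone, with a median log2 fold change of 0.42 (74.3%, against 56.6% of all genes tested). Among the higher ones was the lipoprotein receptor VLDLR (log2 fold change 3.09, edgeR adjusted p = 6.87e-07), from 4.34 ± 1.21 to 36.8 ± 5.63 CPM. PGF, placental growth factor, had the largest fall (log2 fold change -2.74, edgeR adjusted p = 7.04e-07), followed by TMEM45A (log2 fold change -2.0, edgeR adjusted p = 3.56e-05). With co-culture of knockout cells 7 were higher and 1 lower (22.9%, against 11.4% of all genes). The 2 highest were PGF (log2 fold change 2.91, edgeR adjusted p = 1.73e-05) and the repressor BHLHE41 (log2 fold change 2.19, edgeR adjusted p = 3.34e-04), and the 1 lower was the heme oxygenase HMOX1 (log2 fold change -0.82, edgeR adjusted p = 0.0134). PGF was at 2.09 ± 0.240 CPM alone and 15.8 ± 3.10 CPM in co-cultured knockout cells, against 14.1 ± 2.72 CPM in lone control cells. In the interaction 5 of the 35 passed (14.3%, against 1.80% of all genes), all with the larger response in knockout cells.

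GC content moved with these results. Within groups, the deviation of a library from its group mean followed transcript GC over 13820 genes, with Spearman values across genes from -0.833 in the third co-cultured knockout library to 0.825 in the second. The log2 fold changes of all genes followed GC as well, with Spearman values of -0.396 for knockout against control alone and 0.446 for co-culture of knockout cells. The median GC of the 36 genes was 54.1%, against 50.4% over genes tested. The GC offsets took each library's deviation from the mean of all 12 libraries, so they also removed GC trends between groups. With them the Spearman values of the log2 fold changes were -0.0114 and -0.0139 in the same 2 comparisons. A real difference between groups that followed GC would be removed as well. With these offsets 24 of the 36 genes passed in knockout against control alone, 8 higher and 16 lower, and 63.7% of all genes tested passed. With co-culture of knockout cells the corrected fit called 15 of the 36 genes, 13 higher and 2 lower, and 30.4% of all genes tested. Its lower genes were SLC2A1 (-0.28, edgeR adjusted p = 0.0135) and GAPDH (-0.30, edgeR adjusted p = 0.0354), while PGK1, with 43.9% GC, had 1.12 (edgeR adjusted p = 0.0200) and HIF1A -0.44 (edgeR adjusted p = 0.0542). PGK1 in knockout against control alone was -1.10 (edgeR adjusted p = 0.00906) with the correction. Which of the corrected and uncorrected values lies closer to the cells' RNA was not tested.

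**Figure D5:**
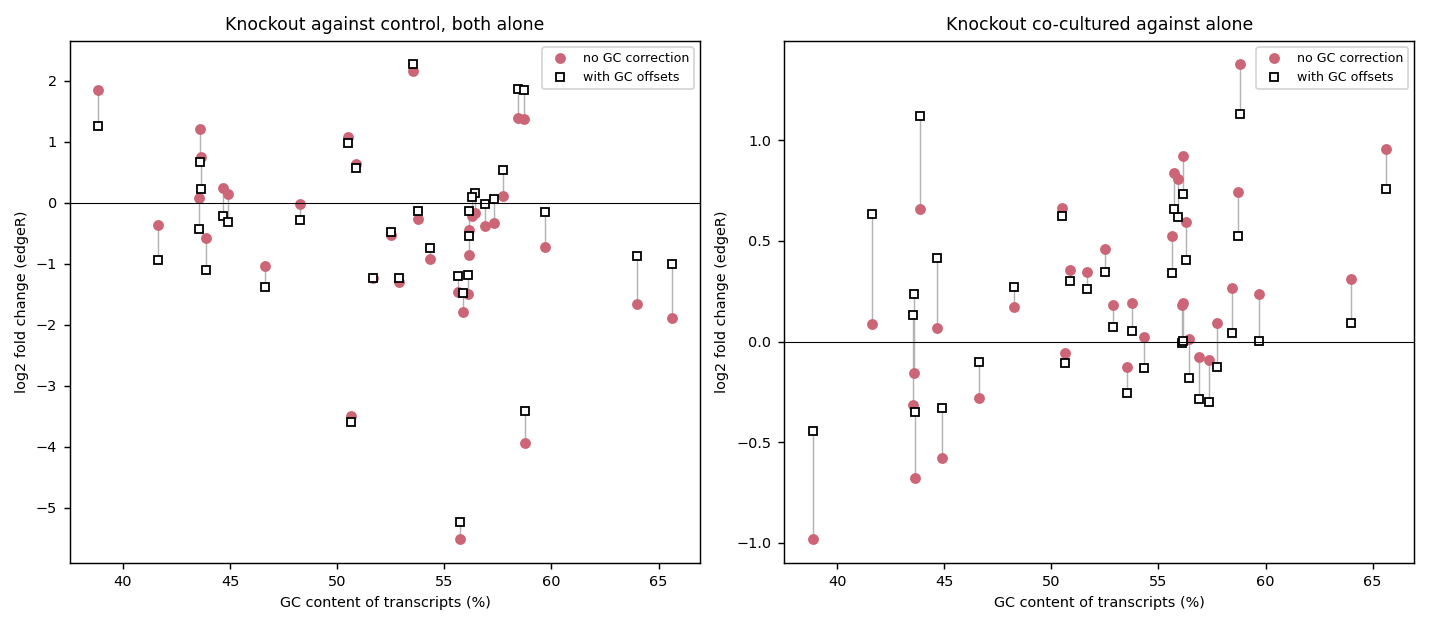
Log2 fold change of the 36 genes against the GC content of their transcripts, for knockout against control with cells alone (left) and for co-culture of knockout cells (right). Filled points are uncorrected and open squares are values with GC offsets, joined by a line for each gene; lines are longest at the low and high ends of GC content.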

How the data were processed

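RNA sequencing of 12 A549 libraries, 4 groups of 3, was used. The authors deposited raw counts per Ensembl gene. Per the submitters' processing notes, FastQC, STAR 2.7.9a, featureCounts, R 4.2.1 and DESeq2 1.36.0 were used with GRCh38 (hg38); which tool made the counts, the annotation, the strand setting and the treatment of reads with several matches are not given in the sources used here. Counts were used as deposited. Identifiers were matched to GENCODE 29, in which 58366 of 61541 were found, for positions, exon lengths and GC content. Symbols came from a separate list of gene names, which gave 61369 identifiers a symbol. Promoter sequences are RefSeq's, GRCh38.p14.

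The filterByExpr function kept 16768 genes by the 4 groups; libraries were scaled by TMM and tested with edgeR 4.0.16 (limma 3.58.1, R 4.3.3): a quasi-likelihood test in 1 model of 4 group means over all 12 libraries, with Benjamini-Hochberg adjustment over all genes and a threshold of 0.05. The scripts were checked on simulated data. The biological coefficient of variation was 22.1%. After TMM scaling 1 CPM is 16.1 to 33.5 counts. Counting error limits genes near or below that level. Ratios of related genes were tested by exact permutation. No 2 replicates agreed within sampling noise.

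Alternatives were RLE size factors, library size alone, no filter on low counts, DESeq2 1.42.0, the 2 compared groups alone, the replicate number as a block, GC offsets (lowess of each library's deviation on GC, span 0.3, genes at 1 CPM or more, prior count 2), GC offsets with the block, each library left out in turn, and for ratios 2 added in place of 0.5. For the GC offsets the deviation was taken from the mean of all 12 libraries, not of the group. Library values were given for the 4 highest and 4 lowest called genes in knockout against control alone and in co-culture of knockout cells, up to 3 in each direction in the interaction and in co-culture of control cells, and HIF1A and EPAS1. From each further list the 2 highest and 2 lowest called genes in the same 2 comparisons were named, except for 1 that is not reported here. The 36 genes and all lists were chosen with earlier results of these data known.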

Additional observations from a re-analysis of the deposited data

Results flagged for a closer look

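The co-culture response of ADM differed between the 2 cell types by the interaction test: the log2 difference in knockout cells exceeded that in control cells by 0.89 ± 0.168 (SE, with an edgeR adjusted p = 0.0170), with knockout cells at 75.1 ± 2.72 CPM alone and 126 ± 10.3 CPM in co-culture and control cells at 29 ± 2.29 and 26.2 ± 1.56 CPM (SD, n = 3). The response of ENO2 differed by 1.10 ± 0.217 (SE, with an edgeR adjusted p = 0.0222), with 88.3 ± 5.93 and 167 ± 20.1 CPM in knockout cells and 159 ± 18.2 and 141 ± 22.6 CPM in control cells. All 3 co-cultured knockout libraries were above all 3 lone ones for both genes, and the control groups overlapped. The ADM call was lost without the second lone control (0.90, edgeR adjusted p = 0.0526), second co-cultured control (0.85, edgeR adjusted p = 0.0730), first lone knockout (0.88, edgeR adjusted p = 0.0534), second lone knockout (0.88, edgeR adjusted p = 0.0678), first co-cultured knockout (0.90, edgeR adjusted p = 0.0574) or second co-cultured knockout library (0.82, edgeR adjusted p = 0.0502). The ENO2 call was lost without those same libraries and also without the third lone control, the first co-cultured control or the third lone knockout library, with adjusted p from edgeR of 0.0531 to 0.0741. ADM was also lost with GC offsets (0.58, edgeR adjusted p = 0.0814), GC offsets with the replicate block (0.59, edgeR adjusted p = 0.0852) and library size alone (0.78, edgeR adjusted p = 0.0674), and both genes with the replicate block (0.89, edgeR adjusted p = 0.0524 and 1.10, edgeR adjusted p = 0.0583).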

How the results depend on the processing

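Of the 23 calls in knockout against control alone, 22 held under every alternative, all but ALDOA. Of the 8 with co-culture of knockout cells 3 did, of the 17 between co-cultured cells 15, and of the 2 interactions none. With co-culture of knockout cells the count of calls was 15 with GC offsets, 13 with GC offsets and the replicate block, and 6 with the replicate block alone, which lost PGK1 (0.66, edgeR adjusted p = 0.0539) and ALDOC (0.84, edgeR adjusted p = 0.0667). The shares of all genes called in these 3 fits were 30.4%, 25.9% and 6.44%. For the interaction the count was 10 without a filter on low counts, 0 with the replicate block, 7 with GC offsets, 5 with both and 9 with DESeq2, and the shares of all genes 3.52%, 1.07%, 9.42%, 6.06% and 5.23%; ADM was not among those called with GC offsets. The replicate numbers did not pair the libraries across all 4 groups. Over 18 same-number pairs the correlation of deviations ran from -0.730 to 0.651, and 8 were over 0.1. Their own number gave the best correlation in every other group for 0 libraries. Outside co-cultured knockout cells, pairs were positive for number 1 (0.291, 0.651 and 0.304) and number 3 (0.569, 0.537 and 0.468). They were negative for number 2 (-0.0735, -0.0361 and -0.123). Pairs with a co-cultured knockout library had -0.372, -0.274 and -0.372 for number 1 and -0.730, -0.660 and -0.680 for number 3. For number 2 these had 0.190, -0.311 and 0.113. With 1 library left out, the counts ranged from 22 to 26 in knockout against control alone, 3 to 15 with co-culture of knockout cells, 16 to 20 between co-cultured cells, 0 to 0 with co-culture of control cells and 0 to 13 in the interaction; pairs without overlap ranged from 8 to 9, 5 to 10, 10 to 10 and 1 to 3 in the first 4 of these, in the order alone, co-culture of knockout cells, co-cultured cells and control cells. HIF1A in control co-culture, at 0.0035, turned to -0.0118 with RLE size factors, -0.00929 with the 2 groups alone, -0.0111 with DESeq2, -0.0480 and -0.302 without the second and the third lone control library and -0.189 without the first co-cultured one (range with 1 library left out -0.302 to 0.452); it was called in none. Counting each of the 36 genes in each comparison, 7 calls were lost and 27 gained under at least 1 setting that kept all libraries, and 10 were lost and 26 gained with at least 1 library left out. Library size alone moved the median of all genes in knockout against control alone from 0.087 to 0.24, and the calls among all genes with co-culture of knockout cells from 1001 higher and 906 lower to 989 and 431. Where no value above shows the cause of a change, the cause was not tested. The lowest count in a library was 4 for CA9, 45 for ANKRD37, 48 for ALDOC and 58 for PDK1.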
